A study of Caenorhabditis briggsae with 16 samples.

Results

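Mir-71 is a microRNA (miRNA) hairpin of the nematode Caenorhabditis briggsae, and its arms, Cbr-Mir-71_5p and Cbr-Mir-71_3p, are 2 of the 372 miRNA arms counted in this time course. They were chosen by name, with their rise and fall over the course already known, so their highs, lows, lag, arm ratio and hourly falls are given as a description with no test. Small RNA was sequenced from whole wild-type animals of strain AF16, with the genotype given as WT and no treatment. Synchronized first-stage (L1) larvae were plated and kept at 25°C, and 1 library was made at each hour from 18 to 33 h, which gives 16 libraries. No hour was replicated, so each interval below covers counting error only and the spread between cultures is unknown.

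A miRNA hairpin is cut into a short duplex of its 5p and 3p arms. One arm, the guide strand, is usually retained by an Argonaute protein and directs it to target mRNAs, while the other, the passenger strand, is usually degraded. In C. elegans, miR-71 is known for promoting a long adult lifespan, for the survival of starved L1 larvae and for its part in setting up the left-right difference between the AWC olfactory neurons. The deposited table marks most passenger strands with an asterisk but neither arm of Mir-71, so both are listed there as mature strands. Genome positions and sequences were not used here.

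Counts were divided by the total of their library and multiplied by the mean total, which gives the normalized counts used throughout. They are shares of all miRNA counts in whole animals, in which fewer expressing cells and less RNA per cell cannot be told apart. Library totals ran from 9588599 at 32 h to 15866144 at 19 h, and the 10 most abundant arms took 58.7% to 65.6% of them. The 21 h library stood apart. Arms whose mean count was 100 or more lay a median of 0.247 on the log2 scale from the mean of their neighbouring hours there, against 0.0653 to 0.161 in the other 13 libraries that have a neighbour on both sides.

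Both arms were abundant. By mean count Cbr-Mir-71_5p ranked 27 and Cbr-Mir-71_3p ranked 71 among the 372 arms, and both passed the filter on low counts. The 5p arm took between 0.202% of its library at 28 h and 1.28% at 33 h, and the 3p arm between 0.0495% at 21 h and 0.242% at 18 h. No other arm in the table stayed within 0.1 (log2) of either of them in every library, so neither is a duplicate of another row.

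The 5p arm went through a shallow low and a deep low and ended the course at its highest level. Its hourly levels from 18 to 22 h were 83507, 99681, 73669, 47492 and 49070 normalized counts. From 23 to 28 h they were 86581, 117020, 110887, 77889, 32180 and 25270, and from 29 to 33 h 43809, 86850, 115090, 142416 and 159462. The low of 21 and 22 h was thus followed by a high at 24 h, a deeper low at 28 h and a climb that lasted to the end. The counting intervals were narrow beside these steps, with an exact 95% interval of 24957 to 25585 at the lowest hour and of 158622 to 160306 at the highest. The level at 33 h was the last one measured, so whether it was a peak cannot be told.

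The 3p arm had its lows at 21 and 27 h and its highest level in the first library. Its hourly levels from 18 to 22 h were 30184, 18529, 13028, 6176 and 14301 normalized counts. From 23 to 28 h they were 27503, 22945, 18482, 11847, 7411 and 12176, and from 29 to 33 h 17662, 21394, 22043, 21377 and 19332. After 30 h the 3p arm thus lay nearly flat while the 5p arm was still climbing, and in every library the 5p arm was the more abundant.

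**Figure D1:**
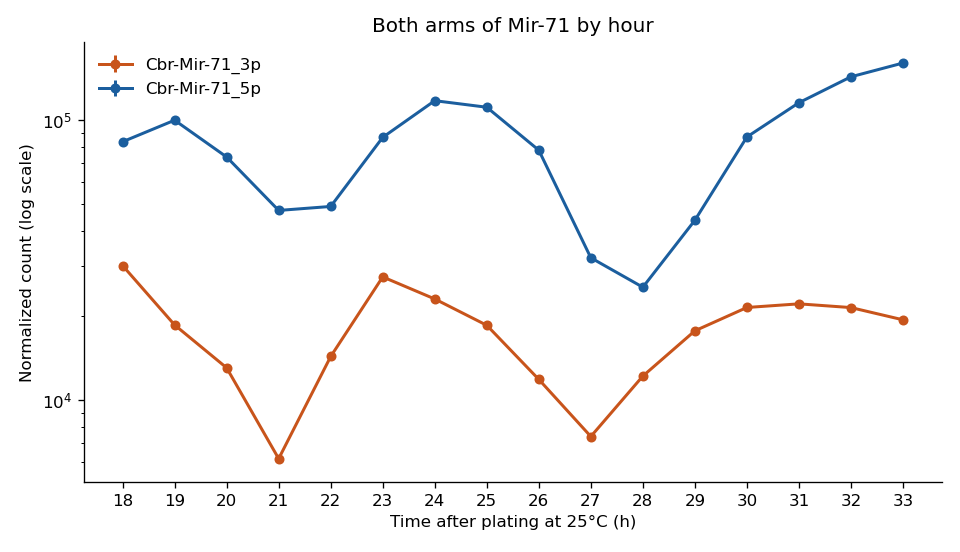
Normalized count (log scale) of Cbr-Mir-71_5p (blue) and Cbr-Mir-71_3p (orange) by hour after plating, 1 library per hour, with exact 95% counting intervals that are mostly smaller than the points. Both arms are low at 21 h, the 3p arm is low again at 27 h and the 5p arm at 28 h, and only the 5p arm goes on climbing after 31 h.

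A turn was counted where log2(normalized count + 8) had a local extreme with a prominence of at least 0.5, the first and last hours left out. By this rule the 5p arm had a high at 24 h between lows at 21 and 28 h, and the 3p arm a high at 23 h between lows at 21 and 27 h. The 5p arm at 24 h was 2.46-fold higher than at 21 h (2.44 to 2.49, exact at 95%) and 4.63-fold higher than at 28 h (4.57 to 4.69). From 28 to 33 h it rose 6.31-fold (6.23 to 6.40), which took it 1.36-fold above its level at 24 h (1.35 to 1.37). The deep low was 1.88-fold below the shallow one (1.85 to 1.91).

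For the 3p arm the earlier low was the deeper. Its level at 23 h was 4.45-fold above that at 21 h (4.32 to 4.59) and 3.71-fold above that at 27 h (3.61 to 3.81), and the 27 h low was 1.20-fold above the 21 h low (1.16 to 1.25). From 27 to 31 h it rose 2.97-fold (2.89 to 3.06) and stopped 1.25-fold short of its level at 23 h (1.23 to 1.27). Thus the 5p arm passed its earlier high in the second rise, and the 3p arm did not.

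The depth of the 3p lows rested on single libraries. Without the 21 h library its early low fell on 20 h, and the level at 23 h was then 2.11-fold above it (2.07 to 2.15). Without the 27 h library its later low fell on 26 h, 2.32-fold below 23 h (2.27 to 2.37). The 5p lows were held by neighbouring libraries. Without 21 h the level at 24 h was 2.38-fold above that at 22 h (2.36 to 2.41), and without 28 h it was 3.64-fold above that at 27 h (3.59 to 3.68).

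The arms moved in the same direction in 10 of the 15 hourly steps. In the other 5 steps, from 18 to 19 h, 23 to 24 h, 27 to 28 h, 31 to 32 h and 32 to 33 h, one arm rose while the other fell. In 4 of these 5 the 3p arm fell as the 5p arm rose, and from 27 to 28 h it was the reverse. The arms therefore did not oscillate strictly together, since each turn of the 3p arm but the one at 21 h came an hour before that of the 5p arm.

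The steepest fall of the 5p arm was from 26 to 27 h, when it dropped from 77889 to 32180 normalized counts, a 2.42-fold fall (2.39 to 2.45) within 1 h. As a net rate this was 0.884 per h, or a halving in 47.1 min, in which loss and new synthesis are not separated. The neighbouring falls were slower. The level fell 1.42-fold from 25 to 26 h and 1.27-fold from 27 to 28 h, and in the earlier descent it fell 1.35-fold from 19 to 20 h and 1.55-fold from 20 to 21 h. The 3p arm fell 1.60-fold from 26 to 27 h (1.55 to 1.65), and its steepest fall was 2.11-fold from 20 to 21 h (2.04 to 2.18), into the 21 h library.

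These steps were set beside those of the more abundant arms of the other 160 hairpins with both arms listed and a guide mean count of at least 100. From 26 to 27 h the log2 change of the 5p arm was -1.28, below that of all 160 (median -0.09). That of the 3p arm was -0.68, with 1 of the 160 as low. The 160 leave out less abundant arms, so the 3p arm was not set beside its own kind. Some of those left out fell further than the 5p arm, with -1.60 for Cbr-Mir-279-o7_5p* and -1.64 for Cbr-Mir-279-o8a_5p*. Others fell further than the 3p arm only, such as Cbr-Mir-10-P3n_3p* (-1.13) and Cbr-Mir-788-v1_5p* (-0.72). Such falls were few, since 11 of the 244 arms described below fell at least 1.5-fold in this step. Over the whole descent from 24 to 28 h the 5p arm changed by -2.21 (log2), and the lowest of the 160 by -1.60. In the rise from 28 to 29 h its change of 0.79 was above that of all 160. In the 20 to 21 h step, by contrast, 19 of the 160 fell as much as the 5p arm did. Taking each guide at the hour of its own steepest fall, the 5p arm placed 6 of 161.

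**Figure D2:**
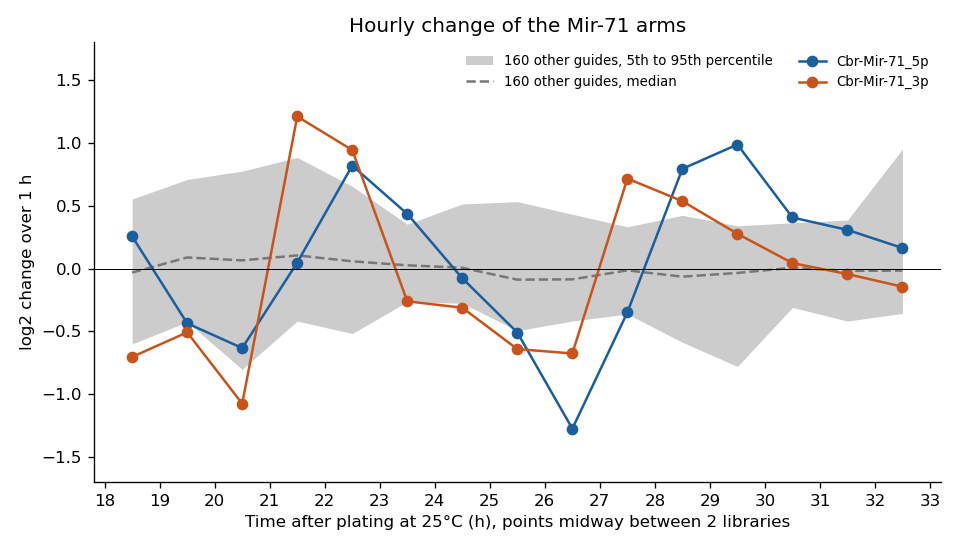
log2 change over 1 h of Cbr-Mir-71_5p (blue) and Cbr-Mir-71_3p (orange), drawn midway between neighbouring libraries, over the 5th to 95th percentile (grey) and median (dashed) of the same step in 160 other guides. The 5p arm drops to -1.28 between 26 and 27 h, and the 3p arm turns from falling to rising before the 5p arm does in that descent.

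Among the 244 arms that passed the filter and averaged 100 counts or more (duplicate -v2 rows left out), 4.51% fell at least 1.5-fold from 26 to 27 h, and both arms of Mir-71 were among them. From 20 to 21 h 18% fell by as much, again with both arms among them. From 22 to 23 h 12.3% rose at least 1.5-fold, and the 5p arm rose 1.76-fold and the 3p arm 1.92-fold. The steps helped to choose the members, so nothing is read from these shares.

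The ratio of the arms, which within a library does not depend on its depth, swung with the hours. From 18 to 21 h there were 2.77, 5.38, 5.65 and 7.69 counts of 5p for each count of 3p. From 22 to 27 h the ratio was 3.43, 3.15, 5.10, 6.0, 6.57 and 4.34. It was lowest at 28 h with 2.08 (exact 95% interval 2.03 to 2.12), and from 29 to 32 h it was 2.48, 4.06, 5.22 and 6.66 before reaching 8.25 (8.12 to 8.38) in the last library. By the same rule for turns it had highs at 21 and 26 h and lows at 23 and 28 h. Both lows fell in hours when the 3p arm had just risen and both highs in hours when it had just fallen, but the ratio did not follow the 3p arm throughout, since it was 4.34 at 27 h after 4 falling steps of that arm and 5.22 at 31 h after 4 rising ones. Without the 21 h library its early high would be the 5.65 of 20 h.

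**Figure D3:**
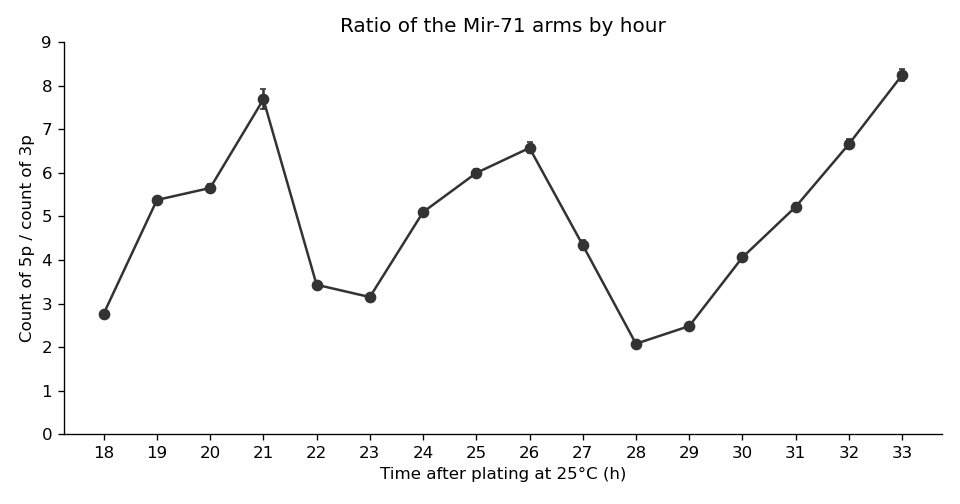
Count of Cbr-Mir-71_5p divided by the count of Cbr-Mir-71_3p in each library, with exact 95% counting intervals, by hour after plating. The ratio climbs from 2.77 to 7.69 by 21 h, falls to 3.15 at 23 h, climbs to 6.57 at 26 h, falls to 2.08 at 28 h and climbs to 8.25 at 33 h.

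Over all libraries the 5p arm had 4.66 counts for each count of 3p. The 83 hairpins with both arms at a mean count of at least 100 had a median ratio of 13.2. Mir-71 lay below this median, at place 25 of 83 from the bottom. The highest ratio of Mir-71 was 3.97-fold above its lowest, against a median of 2.73-fold over the 83 hairpins (place 27 from the top). At least 4 turns of the ratio were found in 14 of the 83. These places are a description.

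The lag between the arms showed in hours with almost equal 3p levels. At 26 and 28 h the 3p arm stood at 11847 and 12176 normalized counts, while the 5p arm stood at 77889 and 25270, which is 3.08-fold apart (3.04 to 3.13). At 20 and 22 h the 3p arm stood at 13028 and 14301, and the 5p arm was 1.5-fold higher at 20 h (1.49 to 1.52). At 24 and 31 h, in contrast, both arms were nearly the same, with 5p levels 1.02-fold apart (1.01 to 1.03) and 3p levels 1.04-fold apart (1.02 to 1.06).

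**Figure D4:**
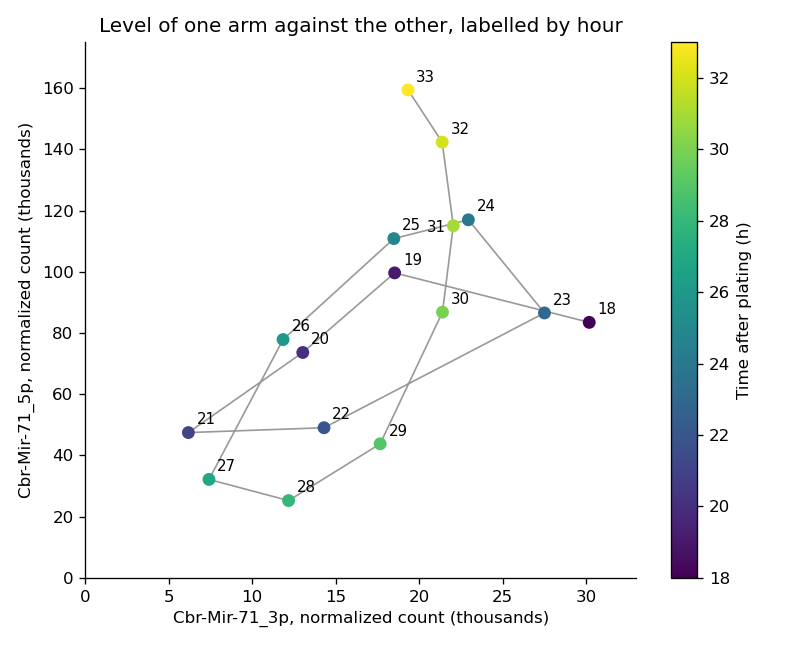
Normalized count of Cbr-Mir-71_5p against that of Cbr-Mir-71_3p, with 1 point per library labelled by its hour and joined in time order. The falling hours 25 and 26 h lie above the rising hours 28 and 29 h, so the points run round a loop, and 32 and 33 h lie above all others.

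Cosine curves at a shared period of 7 h, fitted beside a linear trend to log2(normalized count + 8), placed the 5p peak 0.62 h after that of the 3p arm (standard error 0.29 h, with hours taken as independent). Leaving out each hour in turn gave 0.52 to 0.72 h, and shared periods of 6 to 8 h gave 0.95 to 0.35 h. With a shared period of 8 h the lag (0.35 h) was smaller than its standard error (0.49 h). A period of 7.5 h gave a lag of 0.47 h, not far above its standard error of 0.35 h. The best single period was 7.2 h for the 5p arm and 6.7 h for the 3p arm, and these curves took up 71.3% and 70.4% of the detrended variance. Over the 16 shared libraries Pearson's r between the profiles was 0.65 and Spearman's rho 0.66, and both were 0.82 (n = 15) when the 5p arm was read 1 h later than the 3p arm. Read 2 h later, r was 0.32 (n = 14), and read 1 h earlier it was 0.00 (n = 15). The hours are points of 1 time course, so no p is given.

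The study describes a model in which a guide is produced in proportion to its passenger strand and lost at a constant rate. Fitted to the normalized counts of Mir-71, with 5p as the guide and 3p as the passenger, it gave a half-life of 0.496 h and a root-mean-square error of 24.7% of the mean 5p level. Of the 83 hairpins fitted in the same way, Mir-71 had the error in place 11 from the top, and the median error was 9.60%. An error in percent of the mean can be larger for a guide that swings widely. An observed range at least as wide as that of the 5p arm was found in 14 of the 83, Mir-71 included. The fit took up 69.3% of the variance of the 5p arm, so the place by error alone does not rank how well the model fitted. In 13 of the fits the decay rate ended at a bound. The more abundant arm was taken as the guide, also where it carried the asterisk, as in Cbr-Mir-77-P2 and Cbr-Mir-31. The fitted curve of Mir-71 spanned 2.25-fold from its lowest to its highest hour, and the observed 5p arm 6.31-fold. From 18 to 26 h the fitted level was 0.962 to 1.16 times the observed one. It was 1.72 times the observed level at 27 h, 2.12 times at 28 h and 1.67 times at 29 h, whereas at 33 h the observed level was 1.52 times the fitted one. The model takes the passenger as a short-lived read-out of production, which was not tested for the 3p arm. That arm has no asterisk, and the arm ratio of Mir-71 was below the median of the hairpins.

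The members were named for their rise and fall and not for a steady change, so whether either arm changed steadily over the course was tested. Earlier results of the same libraries were known at the choice, so the test is not independent of it. The quasi-likelihood test of edgeR was fitted to the counts of the 311 arms that passed the filter, with rhythm terms at 7 h. The linear term of Cbr-Mir-71_5p was 0.016 log2 per h (standard error 0.023, adjusted p = 0.54 from edgeR). That of Cbr-Mir-71_3p was -0.0093 log2 per h (standard error 0.019, adjusted p = 0.67 from edgeR). Neither passed the threshold of 0.05 (0 of 2 arms), while 27% of the 311 arms passed as rising (84) and 41.5% as falling (129). With median-of-ratios size factors the calls were 110 rising and 108 falling, and the median change of all arms over the 15 h moved by 0.33 (log2), from -0.44 to -0.11. The linear term of the 3p arm was then above 0, at 0.012 log2 per h, and again did not pass. A missed threshold does not show that a level was constant. The test takes the hours as independent, but neighbouring hours of 1 time course are not. This can make its p-values too small and its calls too many.

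In the same fit the rhythm terms gave an amplitude of 0.84 (log2) to Cbr-Mir-71_5p and of 0.73 to Cbr-Mir-71_3p. The rhythm terms passed in 7.4% of the 311 arms, and both arms of Mir-71 were among them, which is a description, since their rhythm was known when they were chosen. With rhythm terms at 6 h or at 8 h neither arm of Mir-71 passed (0 of 2), and 3 and 12 arms passed in all. Counting -v1 and -v2 rows once, 21 arms passed, and the 5p arm had the amplitude in place 5 and the 3p arm in place 6. In the order of fitted peaks within the 7 h cycle, the 3p arm (3.05 h) came directly before the 5p arm (3.73 h), which was followed by Cbr-Mir-279-o8b_5p* (3.76 h), Cbr-Mir-54-P2_5p* (3.81 h) and Cbr-Mir-54-P3_5p* (3.83 h). In this fit the peaks of these other arms lay closer to that of the 5p arm than the 0.69 h between the arms of Mir-71, and the errors of these peak times were not computed.

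Likeness to each arm of Mir-71 was measured among the same 244 arms by the Pearson correlation of log2(normalized count + 8) over the 16 shared libraries, as a description. The arms most like Cbr-Mir-71_5p were Cbr-Mir-54-P3_5p* (r = 0.71), Cbr-Mir-54-P2_5p* (0.69), Cbr-Mir-7593_3p (0.66), Cbr-Mir-71_3p (0.65) and Cbr-Mir-281-P4_5p* (0.64). Cbr-Mir-54-P3_5p* was far less abundant and moved over a smaller range, with lows of 476 normalized counts at 21 h and 629 at 28 h around 1414 at 25 h. The Mir-54 rows are related hairpins whose reads may be shared between them.

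The most opposite profiles to Cbr-Mir-71_5p belonged to Cbr-Mir-190_3p* (r = -0.94), Cbr-Mir-92-o67_5p* (-0.91) and Cbr-Mir-230_3p (-0.90). These correlations were larger in size than those of the like profiles. With the trend removed they were -0.94, -0.91 and -0.89, and of the like profiles only Cbr-Mir-279-o8b_5p* (0.99, described below) exceeded them. The next like arm was then Cbr-Mir-7593_3p (0.78). Cbr-Mir-230_3p had 15233 normalized counts at 25 h, peaked with 165016 at 28 h and ended on 5288 at 33 h. It was therefore highest in the library where the 5p arm was lowest, and lowest where the 5p arm was highest. Cbr-Mir-190_3p* moved over a far smaller range, between 1788 (33 h) and 3549 (27 h).

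For Cbr-Mir-71_3p the most like arm was Cbr-Mir-7593_5p* (r = 0.87), followed by Cbr-Mir-71_5p (0.65), Cbr-Mir-92-o67_3p (0.64), Cbr-Mir-54-P2_3p (0.64) and Cbr-Mir-54-P2_5p* (0.62). The level of Cbr-Mir-54-P2_3p was lowest in the 21 h library, with 63818 normalized counts, and its Spearman's rho was 0.34. Cbr-Mir-7593_5p* was a rare strand with 513 normalized counts at 18 h, and it turned in the same libraries as the 3p arm, with 94 (21 h), 280 (23 h) and 105 (27 h). The other arm of that hairpin, Cbr-Mir-7593_3p, was among the arms most like the 5p arm of Mir-71. The most opposite arms were Cbr-Mir-788-v1_3p (r = -0.72), Cbr-Mir-73-P3b_3p (-0.69) and Cbr-Mir-190_3p* (-0.66). Cbr-Mir-73-P3b_3p was highest in the 21 h library, with 502 normalized counts, and its Spearman's rho was -0.48. Cbr-Mir-788-v1_3p was highest at 21 h, the lowest hour of the 3p arm of Mir-71, with 117197 normalized counts, and it was high again at 27 h with 58492 after a low of 33821 at 24 h.

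With a linear trend removed from each arm, the arm most like Cbr-Mir-71_5p was Cbr-Mir-279-o8b_5p* (r = 0.99), named here after its value was seen. It declined over the course from 1665 to 467 normalized counts, and its turns fell in the same libraries as those of the 5p arm. They were lows of 599 (21 h) and 170 (28 h) around a high of 996 (24 h). Its correlation before the trend was removed was 0.51. After the trend was removed it was closer to the 5p arm than the most opposite profile, that of Cbr-Mir-190_3p* (r = -0.94), was.

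**Figure D5:**
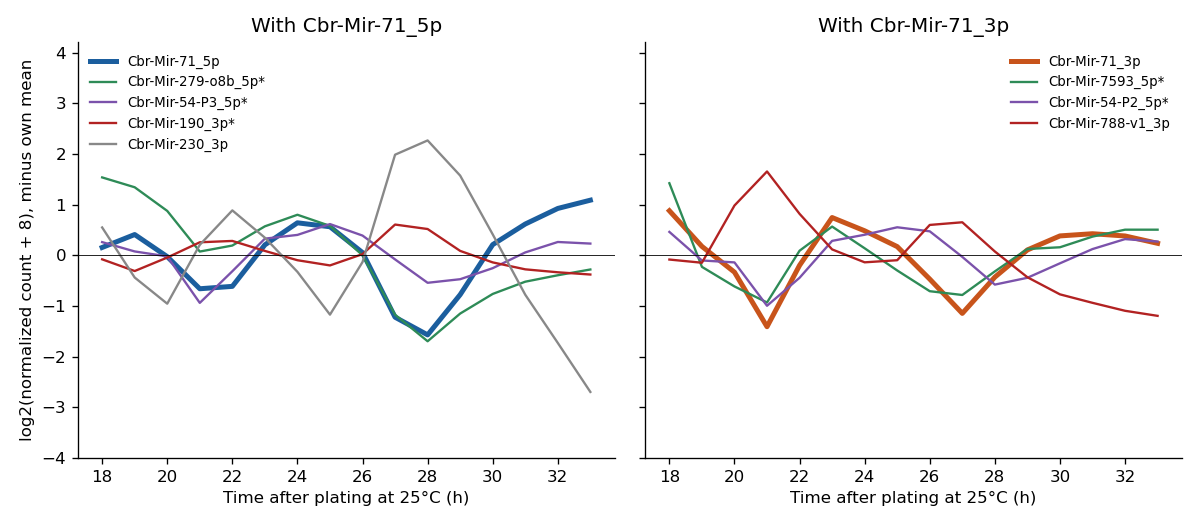
log2(normalized count + 8) minus the mean of each arm over the 16 hours, for Cbr-Mir-71_5p (left, thick blue) and Cbr-Mir-71_3p (right, thick orange) with arms of like or opposite profile. Cbr-Mir-230_3p and Cbr-Mir-190_3p* peak at 27 or 28 h where the 5p arm is low, and Cbr-Mir-788-v1_3p peaks at 21 and 27 h where the 3p arm is low.

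The levels of other miRNAs were read at the same hours. Mir-1 and Mir-133, markers of muscle, together had 128450 normalized counts at 24 h and 106589 at 28 h, which is 1.21-fold apart. Mir-124, a marker of neurons, stood at 1117 and 854 over its 6 rows, and the Mir-36 family, known from the embryo and germline of C. elegans, at 64213 and 71537 over its 60 rows. Over the whole course the Mir-36 sum ran from 45718 to 349851. From 28 to 33 h, when the 5p arm climbed, Cbr-Mir-36-o19_3p rose from 7206 to 108774 and Cbr-Mir-36-o24_3p from 23097 to 81537. Cbr-Mir-36-o1_3p rose from 5098 to 52204, whereas Cbr-Mir-36-o14_3p went from 11113 to 9424. From 24 to 28 h the 5p arm of Mir-71 fell 4.63-fold. From 26 to 27 h none of the 5 muscle and neuron rows averaging 100 counts or more fell 1.5-fold, and of the 32 such rows of the Mir-36 family 1 did. The share over all 244 such arms was 4.51%. The part of a change in the make-up of the animals in the swings of Mir-71 was not tested.

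Mir-2 is a family that lies next to mir-71 in the genomes of many protostome animals. Of its 6 rows, which were all tested, 1 rose and 4 fell over the course (median linear term -0.096 log2 per h, against -0.029 over all 311 arms) and none passed for the rhythm at 7 h. Cbr-Mir-2-o4_5p*, named here after its value was seen, missed the threshold narrowly (adjusted p = 0.053 from edgeR). Its amplitude of 1.24 (log2) was larger than the 0.84 of Cbr-Mir-71_5p, with fitted peaks at 4.11 and 3.73 h. The most abundant, Cbr-Mir-2-P11_3p, had 62653 normalized counts at 24 h and 68386 at 28 h, and was not lower where Mir-71_5p was lowest. Cbr-Mir-2-o3_3p had 41872 and 32252 at these hours, and Cbr-Mir-2-o4_3p 711 and 331, and both were among the rows that fell over the course. At the steps of Mir-71, 2 Mir-2 rows fell at least 1.5-fold from 20 to 21 h, 1 rose as much from 22 to 23 h and 1 fell as much from 26 to 27 h. Mir-34 and Mir-246, which like miR-71 are known from studies of ageing in C. elegans, have 4 rows. Of these 3 rose over the course (median 0.21 log2 per h) and 1 did not pass, and none passed for the rhythm. Cbr-Mir-34_3p had 26242 normalized counts at the 5p high of 24 h and 23050 at the low of 28 h, and Cbr-Mir-246_3p rose from 98 in the first library to 15228 in the last. Of the 4 rows of Mir-92, 2 rose (median 0.054) and 1 passed for the rhythm, and of the 2 rows of Mir-788 both fell (median -0.19) and 1 passed for the rhythm. Of the 3 tested rows of Mir-1 and Mir-133, 1 rose and 2 fell (median -0.034), the 3 tested rows of Mir-124 fell (median -0.083), and of the 40 tested rows of the Mir-36 family 12 rose and 6 fell (median -0.058), with none of these rhythmic. For all 311 arms the shares were 27% rising, 41.5% falling and 7.4% rhythmic. With TMM or median-of-ratios scaling all 4 rows of Mir-34 and Mir-246 rose, median-of-ratios scaling gave 3 rising Mir-92 rows and left 1 muscle row rising and 1 falling, and the Mir-36 rows that fell were 5.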

How the data were processed

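Whole-animal total RNA was made into TruSeq small RNA libraries and read from 1 end. The authors trimmed adapters, mapped reads (Bowtie, and ce10 as build in the submitters' processing notes, whereas the study's methods name a C. briggsae assembly) and deposited counts of reads starting at annotated arms. The deposited log2 table, log2(count divided by the library total, times the mean total, plus a pseudocount of 8), was recomputed for 5952 values with a largest difference of 0.0005. Reads carry no molecular identifiers.

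Each library was assigned to its hour by its title. The 311 of 372 arms reaching 10 counts in 8 or more libraries were tested with edgeR 4.0.16 (R 4.3.3) on the counts, with library totals as sizes, time as a linear term beside a cosine and a sine of 7 h period, and Benjamini-Hochberg adjustment. Intervals are exact at 95% (Poisson for levels, conditional binomial for ratios). The decay model used forward Euler integration with 100 steps per hour. DESeq2 1.42.0 served as an alternative, and other steps ran in Python 3.11.15 (pandas 2.3.3, numpy 2.4.6, scipy 1.17.1). The fits were tested on simulated data. Named arms are the members, the 5 most and 3 least correlated with each, and up to 4 examples per list by mean count. The members and lists were chosen with earlier results of these data known.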

Additional observations from a re-analysis of the deposited data

How the results depend on the processing

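No paired analysis was possible because each hour has 1 library. Neither linear term passed under any alternative (adjusted p 0.15 to 0.98 for 5p and 0.20 to 0.99 for 3p, by edgeR or DESeq2). The 5p term, in log2 per h, was 0.032 under TMM, 0.039 under median-of-ratios scaling or DESeq2, 0.052 with rhythm terms at 6 h and 0.040 without them, against 0.016. It turned to -0.013 with rhythm terms at 8 h and lay between -0.019 (without 33 h) and 0.025 with 1 hour left out, and the 3p term between -0.029 and 0.0029. The 3p term turned to 0.0055 under TMM, 0.012 under median-of-ratios scaling or DESeq2, 0.033 with rhythm terms at 6 h and 0.00042 without them. With median-of-ratios factors 110 arms rose and 108 fell, and with DESeq2 114 and 109, against 84 and 129.

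The lag was 0.35 to 0.78 h under the other settings but 0.95 h at a shared period of 6 h, and 0.52 to 0.72 h with 1 hour left out. The 5p fall from 24 to 28 h was 4.24-fold by TMM, 4.16-fold by median-of-ratios and 4.73-fold without the 10 most abundant arms in the total. The 3p fall from 23 to 27 h was 3.40-fold and 3.26-fold with the first 2 of these, and the 5p fall from 26 to 27 h 2.26-fold and 2.30-fold. The number of highs and lows stayed at 6, or 7 with a prominence of at least 0.25, which adds a 5p high at 19 h. These settings on highs and lows were chosen after seeing the data. TMM factors moved the early 5p low to 22 h.

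The error of the constant-decay model was 27.3% of the mean level with squared error on log2 and 16.3% over 18 to 29 h. Of the 5 arms named as most like, 2 were shared with the trend removed and 2 with Spearman correlation for 5p, and 1 and 2 for 3p. Of the 3 most opposite to 3p, 1 and 0 were shared. The causes were not tested. The intervals cover counting error only, and the spread between cultures is unknown.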
